A study of Caenorhabditis elegans with 2 samples.

Results

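F56G4.6, tasp-1, cux-7, vps-51 and lin-35 are 5 of the 19973 protein-coding genes of Caenorhabditis elegans with an annotated start on the nuclear chromosomes, and they were chosen by peak signal. Their starts lie beside some of the highest-signal autosomal peaks in a chromatin immunoprecipitation sequencing (ChIP-seq) experiment on the homeodomain protein CEH-63. The 5 genes account for 4 peaks, since vps-51 and lin-35 share a peak between their starts. These 4 are among the 479 peaks that the authors called reproducible between replicates. For each gene, the highest-signal peak with a summit within 3000 bp of an annotated start was taken in every list. Because pooled signal chose the genes, the ranks below are a description and carry no test.

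The material was whole L1 larvae, 6 hours of age, starved after bleaching, with both sexes pooled, in 2 biological replicates that form a single group. Strain OP742 carries the transgene wgIs742, in which C02F12.10 (ceh-63) is joined to TY1, EGFP and 3xFLAG tags, along with unc-119(+) in an unc-119(tm4063) mutant background, so CEH-63 was profiled from a tagged transgene. Per the labels the antibody was anti-GFP, although the antibody field names ceh-63. There is no untagged or second group, the control library was not analysed here, and whole animals give no information on which cells a peak came from. The data are 4 lists of peaks on the ce11 assembly: 30000 peaks called in replicate 1, 30000 in replicate 2, 30000 on the pooled alignments, and the 479 reproducible ones. Rank 1 is the peak with the highest signal in its list. A place in the reproducible list does not mean a match in each replicate. Its peak of rank 131, for example, had no summit within 200 bp in replicate 2. Signal has no stated scale and read depth is unknown, so signal was compared only within a list. No p-value is given, and "bound" is not used, because a peak gives a position and not the protein that is there.

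LIN-35 is the retinoblastoma family pocket protein of C. elegans. It acts with the E2F and DP proteins and the LIN-54 class of DNA-binding proteins in the DREAM complex, which represses cell cycle genes, and with the synMuv B chromatin genes, which hold germline genes silent in the soma. Loss of lin-35 is known to shorten the survival of starved L1 larvae. VPS-51 is a subunit of the GARP complex, which tethers vesicles returning from endosomes to the trans-Golgi network. The tasp-1 gene encodes a homologue of taspase, a threonine protease that in mammals cleaves the MLL methyltransferases and the general transcription factor TFIIA. The cux-7 product has an RNA recognition motif domain. RefSeq lists the gene as akap-17A, and human AKAP17A is a splicing factor that anchors protein kinase A. F56G4.6 is named by RefSeq only as a protein with a Rod_C domain, a domain named after the Drosophila kinetochore protein Rod. In C. elegans many messages are trans-spliced to a leader RNA, so that an annotated start can mark the splice acceptor and not the place where transcription begins.

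Stretches under the peaks on chromosome III are shown because they are the sequence around the summits at tasp-1 and cux-7. Each is the part of the peak that lies between the outermost annotated starts of the head-to-head genes there. Both are the plus strand of ce11, 5′ to 3′. Capitals mark the words that were searched for, described after the sequences. The tasp-1 stretch is chrIII:10759098-10759306, 209 bases with the summit at base 186, and the cux-7 stretch is chrIII:7520846-7521008, the whole gap of 163 bases between cux-7 and its neighbour, with the summit at base 30.
tasp-1: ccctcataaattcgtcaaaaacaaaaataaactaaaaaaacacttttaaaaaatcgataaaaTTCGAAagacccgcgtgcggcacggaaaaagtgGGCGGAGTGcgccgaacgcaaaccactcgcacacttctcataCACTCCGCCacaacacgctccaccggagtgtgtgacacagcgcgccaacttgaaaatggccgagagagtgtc
cux-7: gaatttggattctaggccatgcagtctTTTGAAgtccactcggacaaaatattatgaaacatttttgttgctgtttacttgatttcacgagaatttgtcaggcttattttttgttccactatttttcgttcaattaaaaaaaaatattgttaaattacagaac

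The tasp-1 stretch was richer in G and C (47.8%) than the cux-7 stretch (30.1%). In the tasp-1 stretch, the longest word that recurs without overlap on either strand, among words with at least as many G and C as A and T, is CACTCCGCC. It occurs on the plus strand at 10759235 to 10759243 and on the minus strand at 10759193 to 10759201, starting 48 and 90 bp before the summit. This word was picked out after the sequence was seen. A window of 369 bp centred on the summit held it in 3 of the 479 reproducible peaks (0.626%) and in 39 of the 30000 pooled peaks (0.13%). Both counts include the tasp-1 peak, from which the word was taken. TTCGAA, one of the words described next, lies at 10759160 to 10759165, starting 123 bp before the summit. No repeated word of 8 or more letters with as much G and C was found between cux-7 and its neighbour.

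4 words were searched on both strands within 50 bp of each summit: TAATTA, a homeodomain core; TTTGAA and TTCGAA, forms of the cell cycle element that LIN-54 class proteins recognise; and GCGGGA, an E2F class core. TAATTA and TTCGAA read the same on both strands, and no marked words overlap in the sequences printed. The cux-7 summit lay inside a TTTGAA, and TTCGAA was near the summit at F56G4.6. The 101 bp centred on the summit held none of the words at tasp-1 or between vps-51 and lin-35. None of the 4 peaks held TAATTA or GCGGGA there, or within 150 bp. Over all reproducible peaks TAATTA was present in 5.22%, TTTGAA in 16.3%, TTCGAA in 3.55% and GCGGGA in 3.34%, and over all pooled peaks in 3.9%, 23.4%, 5.63% and 2.44%. With a width of 150 bp to each side, TTTGAA and TTCGAA were each found at 3 of the 4 peaks. The exception was the vps-51 and lin-35 peak. The words were in 44.7% and 16.7% of the reproducible peaks, and in 55% and 16.4% of the pooled peaks. Among autosomal reproducible peaks with a coding start within 1000 bp, the shares were 48.1% and 24.5%. These matches describe letters and do not show a site. The G and C content of the 101 bp at the summit was 50.5% at F56G4.6, 59.4% at tasp-1, 39.6% at cux-7 and 33.7% between vps-51 and lin-35. The median was 44.6% over reproducible peaks (quartiles 38.6% and 50.5%) and 38.6% over pooled peaks, so the 4 peaks lie on both sides of it. With 150 bp to each side the order changed: 33.6% at F56G4.6, 51.5% at tasp-1, 32.9% at cux-7 and 37.9% between vps-51 and lin-35, beside a median of 41.2% over reproducible peaks (quartiles 36.5% and 46.5%). F56G4.6 thus went from above the median to below the lower quartile.

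At lin-35 and vps-51, a single peak stood between the starts of a pair of genes that are transcribed away from each other. It covered chromosome I from 5807294 to 5807663 and ranked 14 in the pooled and the reproducible list, 16 in replicate 1 and 18 in replicate 2. The starts of vps-51 (WBGene00015176, minus strand, 5807291) and lin-35 (WBGene00003020, plus strand, 5807709) leave a gap of 417 bp. The pooled interval reached neither start, while that of replicate 1 (5807281 to 5807636) covered the vps-51 start. The pooled summit was intergenic, 188 bp upstream of vps-51 and 230 bp upstream of lin-35. It was 238 bp from the start codon of vps-51 and 251 bp from that of lin-35. The summit lay 168 bp from vps-51 and 250 bp from lin-35 in replicate 1, and 191 and 227 bp in replicate 2. In every list it was thus nearer to vps-51, by a margin smaller than the width of the peak, and the peak cannot be given to 1 of the genes. This was the only pooled peak within 3000 bp of either start. Replicate 1 had a further 2 weak peaks there, of rank 21368 and 29729, and replicate 2 had 1 of rank 27841, all on the vps-51 side. The start of C32F10.4, an uncharacterised gene on the minus strand inside the span of lin-35, lay 2523 bp from the summit. Downstream of vps-51 on the same strand, mtk-1, a protein kinase gene, follows after 221 bp.

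F56G4.6 (WBGene00010161) had the highest-ranked peak of the 5 genes. It spanned chromosome I from 11374261 to 11374630 with rank 3 in the pooled list. Replicate 1 placed it at rank 13, and in replicate 2 it was rank 1 of the whole list. F56G4.6 (minus strand, start 11374334) and wbp-4 (plus strand, start 11374620) stand back to back across 285 bp, and the interval covered both starts. The pooled summit was intergenic, 112 bp upstream of F56G4.6 and 174 bp upstream of wbp-4. It was 141 bp upstream of F56G4.6 in replicate 1 and 103 bp in replicate 2. The product of wbp-4 has a U1-type zinc finger, and its human namesake WBP4 is a spliceosome-associated protein. Next downstream of wbp-4 on its strand is png-1, a peptide N-glycanase gene, after 103 bp. The only other pooled peak within 3000 bp of the F56G4.6 start was weak (rank 20256) and lay 1949 bp inside the gene.

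The tasp-1 peak was the steadiest in position. It covered chromosome III from 10759098 to 10759467 and ranked 4 in the pooled list, 3 in replicate 1 and 9 in replicate 2, and the 3 summits fell within 1 bp of each other. tasp-1 (WBGene00010480, plus strand) has 3 annotated starts, and the summit was 24, 102 and 386 bp upstream of them. RefSeq lists only the start at 102 bp, and the start codon was 484 bp away. K01G5.10, on the minus strand, begins 784 bp across the gap, and its start was 761 bp from the summit and outside the peak. RefSeq names its product after the human haloacid dehalogenase-like protein HDHD3. K01G5.10 is followed on its strand, with 0 bp between, by rnf-113, whose human counterpart is a spliceosome-associated ubiquitin ligase, and then after 93 bp by hpl-2, a heterochromatin protein gene of the synMuv B class. Downstream of tasp-1 on the same strand, after 109 bp, is dpy-28, which encodes a condensin subunit of the dosage compensation complex. The starts of hpl-2 and dpy-28 were more than 3000 bp from the summit.

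The surroundings of tasp-1 held more peaks than those of the other 4 genes. Within 3000 bp of its starts there were 7 pooled peaks, 5 in replicate 1 and 4 in replicate 2, where the median protein-coding gene had 2 in each list (quartiles 1 and 3). Some of these weaker peaks differed between the replicates. A peak at 10760178 to 10760533, inside tasp-1 and 687 bp past the last start, ranked 407 in replicate 1. The pooled peak there had rank 7615, and the nearest in replicate 2 had rank 25259. Upstream of the summit, replicate 1 had peaks of rank 7218 and 19314, where replicate 2 had 1 peak, of rank 29857. The next highest secondary peak at any of the 5 genes had rank 4097, also at tasp-1 in replicate 1. That peak had a counterpart within 200 bp in replicate 2, of rank 7479, and in the pooled list, of rank 4828.

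At cux-7 (WBGene00000854) the summit lay in the narrowest of the 4 gaps. It covered chromosome III from 7520690 to 7521059 with rank 8 in the pooled list, rank 30 in replicate 1 and rank 4 in replicate 2. cux-7 (minus strand) has starts at 7520782, 7520805 and 7520845, and the summit was 93, 70 and 30 bp upstream of them. In the replicates it was 5 and 20 bp upstream of the outermost start. RefSeq places the start 89 bp from the summit. C07H6.2, on the plus strand, begins 163 bp across the gap, and the interval covered its start as well. Its product is named after human PPP1R11, an inhibitor of protein phosphatase PP1 that is also described as a ubiquitin ligase. lig-4, the DNA ligase of non-homologous end joining, follows C07H6.2 after 130 bp with its start 588 bp from the summit. On the other side, clk-2, a gene of telomere length control and the DNA damage checkpoint, follows cux-7 after 103 bp. The 2 further pooled peaks within 3000 bp of the cux-7 starts ranked 8359 and 24521.

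**Figure D1:**
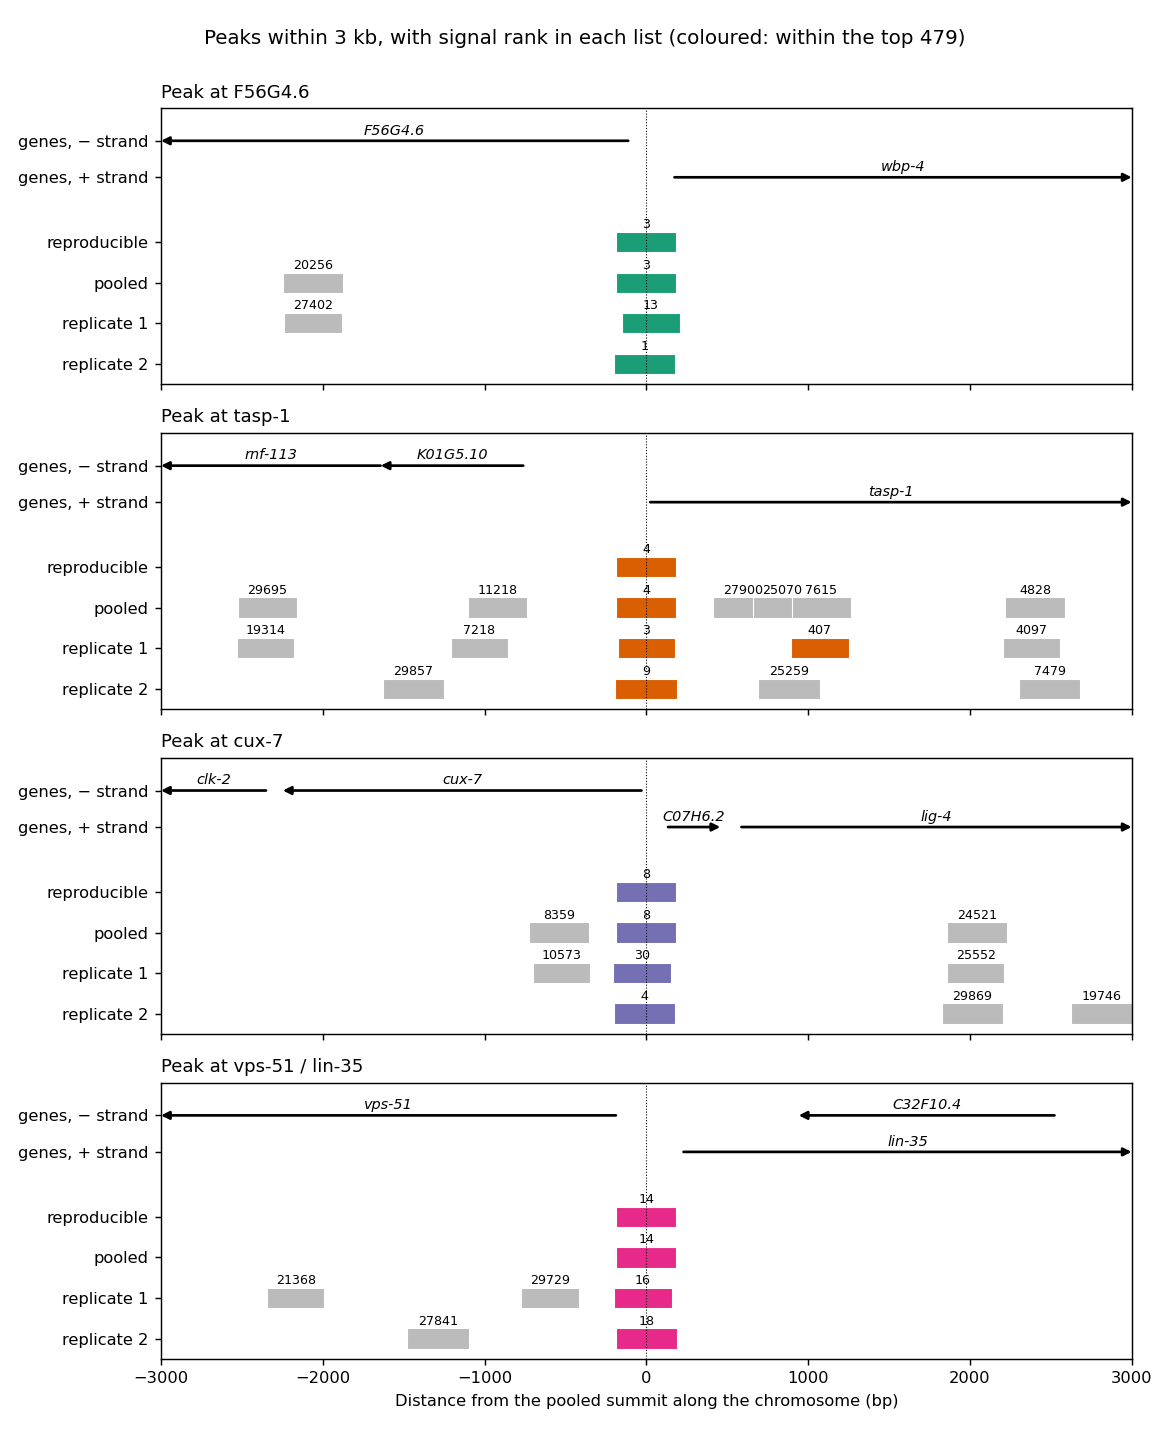
Peaks within 3000 bp of the pooled summit at each of the 4 loci, drawn to scale against distance along the chromosome in bp. Rows are the 4 lists, numbers are signal ranks within the list, coloured bars are peaks within the top 479 of their list, grey bars are weaker peaks, and arrows are genes pointing in the direction of transcription. Each locus has 1 strong peak at its centre in every list, and tasp-1 has a second coloured peak, of rank 407, in replicate 1 alone.

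All 4 pooled summits lay in the gap between head-to-head starts, while the pooled intervals at F56G4.6, tasp-1 and cux-7 reached past a start. At vps-51 the interval of replicate 1 did so too. The position of the summit in that gap varied: near the middle for vps-51 and lin-35 (188 bp from one side and 230 bp from the other), towards F56G4.6 in the 285 bp gap, and within 30 bp of the tasp-1 and cux-7 starts. Among the 1640 autosomal gaps of at most 1000 bp between head-to-head protein-coding genes, 9.39% were as narrow as that at cux-7, 27.1% as that at F56G4.6, 44.1% as that at lin-35 and 83.5% as that at tasp-1. The widths of the 4 gaps therefore cover most of the range.

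**Figure D2:**
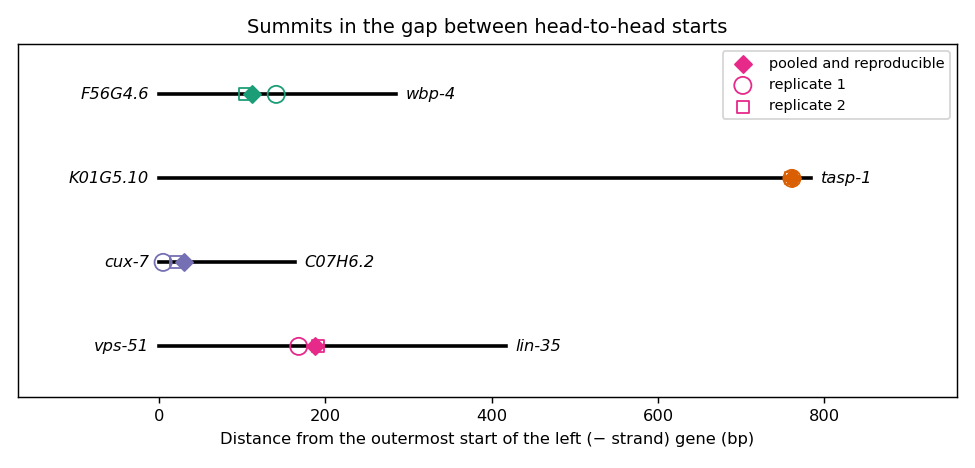
The gap between the outermost starts of each head-to-head pair, in bp from the start of the gene on the minus strand at the left. Filled diamonds are the pooled summits (identical in the reproducible list), open circles replicate 1 and open squares replicate 2. The tasp-1 summits coincide within 1 bp, and the cux-7 summits lie within 30 bp of the cux-7 start.

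The replicates placed the 4 summits close together. The distance from the pooled summit was 29, 0, 25 and 20 bp in replicate 1 and 9, 1, 10 and 3 bp in replicate 2, in the order F56G4.6, tasp-1, cux-7 and the peak of vps-51 and lin-35. The pooled list was made from both replicates, so these distances are not independent of it. The pooled signal was 423 at F56G4.6, 407 at tasp-1, 359 at cux-7 and 330 at vps-51 and lin-35, where the median pooled peak had 55.1. In replicate 1 the values were 151, 203, 117 and 144 (median peak 28.1), and in replicate 2 they were 280, 190, 240 and 172 (median peak 31.5). By rank, tasp-1 stood higher in replicate 1, and F56G4.6 and cux-7 stood higher in replicate 2. The vps-51 and lin-35 peak kept nearly the same rank. In the reproducible list, 22 peaks had a rank of 30 or better in each replicate, 13 of them on autosomes, and the 4 peaks were among them. The limit of 30 equals the replicate 1 rank of cux-7, so it takes in all 4, and a limit of 20 leaves cux-7 out. All 4 had the highest −log10 q of each list (1.58 pooled, 2.24 and 1.62 in the replicates), a value that 58 pooled peaks, 88 peaks of replicate 1 and 105 of replicate 2 share, so the q-values do not order them. The next reproducible peak on the same chromosome was 143620 bp from the F56G4.6 summit, 97711 bp from tasp-1, 184844 bp from cux-7 and 218324 bp from the vps-51 and lin-35 summit, with ranks 353, 138, 392 and 465.

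**Figure D3:**
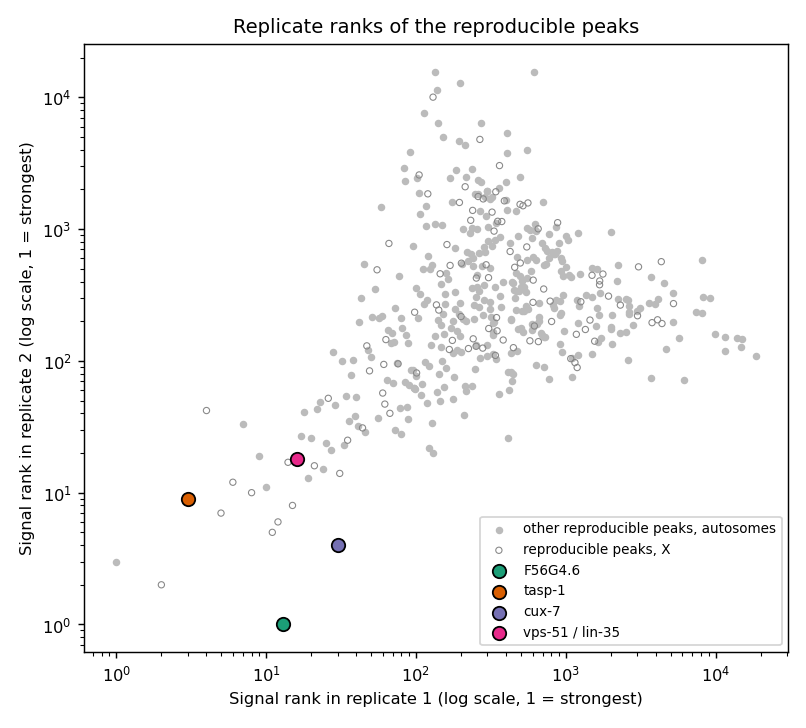
Signal rank in replicate 1 against signal rank in replicate 2, both on log scales with 1 as the strongest, for the reproducible peaks with a summit within 200 bp in both replicates. Grey points are autosomal peaks, open circles X peaks and coloured points the 4 peaks described here. F56G4.6 (13 and 1) and cux-7 (30 and 4) ranked higher in replicate 2, tasp-1 (3 and 9) in replicate 1, and the vps-51 and lin-35 peak had nearly equal ranks (16 and 18).

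Among the 212 autosomal reproducible peaks with a protein-coding start within 1000 bp, the 4 peaks stood 2nd, 3rd, 4th and 7th by pooled signal. The peak above them was that at the ribosomal protein gene rpl-3 (rank 1). Between cux-7 and the vps-51 and lin-35 peak stood those at rpl-35, another ribosomal protein gene (rank 10), and at rank 12, whose nearest coding start is egg-5, 577 bp away. Next below came a peak of rank 18, then rank 21 between rpl-20 and Y17G9B.5. A reproducible peak within 3000 bp of a start was found for all 5 genes, where it was found for 658 of 19973 protein-coding genes (3.29%). Within 1000 bp it was again found for all 5, against 331 genes (1.66%). Since signal chose the genes, nothing is read from these counts.

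The peaks at rpl-3, rpl-35 and egg-5, which rank among these but were not chosen, lie in no head-to-head gap. The orientation of the neighbours may therefore not be independent of the choice of genes. Of the 1640 autosomal head-to-head gaps, 46 held a reproducible summit (2.8%), and ordered by the rank of that summit the first 4 gaps were those of F56G4.6 with wbp-4, K01G5.10 with tasp-1, cux-7 with C07H6.2, and vps-51 with lin-35. The next were rpl-20 with Y17G9B.5 (rank 21), prp-19, a splicing factor gene, with K10D2.5 (rank 28), and rpl-15 with K11H12.8 (rank 36). With a limit of 500 bp, 29 gaps held one, and the tasp-1 gap of 784 bp is not among them. Of the 9 autosomal reproducible peaks in the top 20, 4 were in a gap of at most 1000 bp, and these are the chosen ones, so nothing is read from that count. Among lower ranks, which hold none of the chosen peaks, the share was 14 of 68 for ranks 21 to 100 (20.6%, 95% Wilson interval 12.7 to 31.6) and 30 of 299 for ranks 101 to 479 (10%, 7.12 to 14). It was 294 of 24423 for autosomal pooled peaks outside the reproducible list (1.2%, 1.07 to 1.35), and such gaps hold 0.974% of autosomal bases. Among autosomal reproducible peaks with a coding start within 1000 bp it was 48 of 212 (22.6%, 17.5 to 28.7), the 4 chosen peaks included. A head-to-head gap has a start at either end, and the part of nearness to a start in these shares was not tested. The intervals cover the counting of peaks only, the limit of 1000 bp was set after the loci had been seen, and no test was made.

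**Figure D4:**
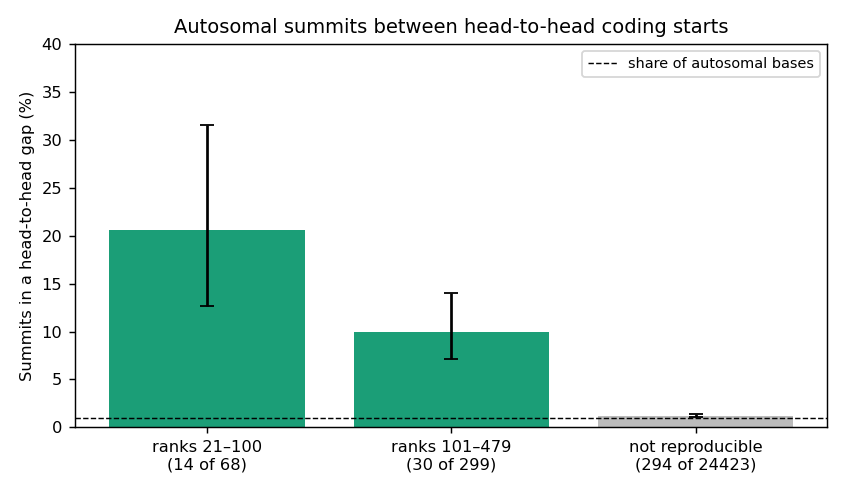
Share of autosomal summits, in percent, that lie between head-to-head protein-coding starts at most 1000 bp apart, for ranks 21 to 100 and 101 to 479 of the reproducible list, which hold none of the 4 peaks described here, and for the other pooled peaks. Bars start at 0, error bars are 95% Wilson intervals and the dashed line is the 0.974% of autosomal bases in such gaps. The share is 20.6%, 10% and 1.2% from left to right.

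Of the genes that act with lin-35 in the DREAM complex or as its partners, 2 of 8 others had a reproducible peak within 3000 bp of a start, beside 3.29% of all protein-coding genes. They were lin-54, which encodes the DNA-binding subunit, and lin-53, a histone-binding protein gene. The lin-54 peak (IV, 13240534 to 13240903) ranked 116 in the pooled list, 147 in replicate 1 and 128 in replicate 2. It lay 325 bp upstream of lin-54 in a 392 bp head-to-head gap, but only 68 bp from the start of the ribosomal protein gene rpl-12. The lin-53 peak (I, 9619752 to 9620121) ranked 136, with 73 and 253 in the replicates, and was 177 bp upstream of lin-53 in a 466 bp gap shared with nra-2. The E2F gene efl-1 fell just outside the reproducible list, with a pooled peak of rank 554 at 142 bp upstream and best ranks of 438 and 466 in the replicates. For lin-52, lin-9, efl-2, dpl-1 and lin-37 the best pooled ranks within 3000 bp were 1351, 1018, 10751, 16197 and 27008. The median of the best pooled rank was 1184.5 over the 8 genes and 8994 over the 16977 protein-coding genes with a pooled peak that near.

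A list of 15 synMuv genes was drawn up as class B, but it also holds lin-8, lin-38 and lin-56, which are of class A. Of the 15, 1 had a reproducible peak within 3000 bp and 0 within 1000 bp. It was tam-1 (rank 404, 1563 bp downstream of its start). The median best pooled rank was 6998 over the 14 genes of the mixed list with a pooled peak within 3000 bp. The best pooled peak of hpl-2 within that distance, of rank 11218, lay 2833 bp upstream, inside K01G5.10, and is one of the weak peaks beside tasp-1. Of 24 cell cycle genes, 1 had a reproducible peak, the replication clamp gene pcn-1 (rank 100, 276 bp upstream, 86 and 158 in the replicates). The median best pooled rank was 6150 over the 21 cell cycle genes with a pooled peak within 3000 bp. None of the other 4 GARP and EARP subunit genes (vps-50, vps-52, vps-53 and vps-54) had a reproducible peak, and their best pooled rank was 3767, at vps-54. None of 21 further genes of endosome and lysosome transport had one either, the highest being at rank 544. Lists this short cannot separate a share of 0 from the 3.29% of protein-coding genes as a whole.

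Of 4 genes taken as TFIIA subunit or MLL and SET1 class methyltransferase genes, for the substrates of mammalian taspase, 2 had a reproducible peak within 3000 bp, beside 3.29% of all protein-coding genes, and the same 2 within 1000 bp, beside 1.66%. They were pqn-51, of the TFIIA large subunit (rank 154, 104 bp upstream, 148 and 188 in the replicates), and set-16, of the MLL class (rank 216, 248 bp upstream). A further reproducible peak, of rank 241, lay 140 bp from a pqn-51 start, with ranks of 978 and 168 in the replicates. The set-16 peak is in a 345 bp head-to-head gap, closer to the start of drr-2 (98 bp), and its ranks were far apart, 91 in replicate 1 and 3826 in replicate 2. For set-2 and gtf-2A2 the best pooled ranks were 10846 and 20543. A list of cut-class homeobox genes had been drawn up with cux-7 in it by its name. As RefSeq gives cux-7 no homeodomain, it was left out, and 1 of the other 8 genes had a reproducible peak within 3000 bp, beside the same 3.29%, at ceh-38 (rank 77, 18 bp downstream of its start, 53 and 349 in the replicates). None of the counts from the related lists, above or below the share of all genes, was tested. The lists are short and were drawn up with earlier results known, so nothing is read from these counts.

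**Figure D5:**
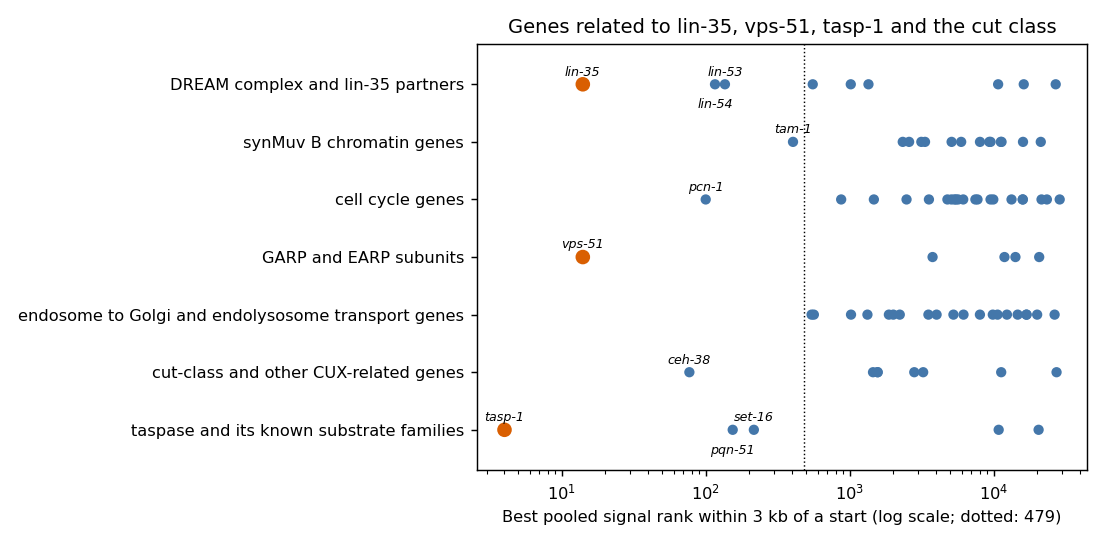
Best pooled signal rank (log scale) of a peak within 3000 bp of a start for each gene of the 7 related lists that has one. Orange points are tasp-1, vps-51 and lin-35, blue points the other genes, and the dotted line is rank 479, the last reproducible peak. Besides the orange points, lin-54, lin-53, tam-1, pcn-1, ceh-38, pqn-51 and set-16 stand to the left of the line. The list labelled synMuv B also holds the synMuv A genes lin-8, lin-38 and lin-56.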

How the data were processed

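The files were peak lists in narrowPeak form on ce11, the same assembly as the WBcel235 annotation used here. The deposited README text has 1 list from each replicate's alignment and 1 from both together, all against 1 control alignment, and a reproducible list made from these 3 by irreproducible discovery rate. Not given in the sources used here are the aligner, the peak caller and that threshold. The signal values were deposited by the authors with no stated scale, and the deposited −log10 q-value column was used only as an alternative ranking. The deposited offset column gave each summit. With no read counts, no interval for signal can be given.

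Starts of all transcripts came from Ensembl release 115, and product names from RefSeq (WBcel235). Each gene took its highest-signal peak within 3000 bp of a start. Replicate peaks were matched within 200 bp. Head-to-head gaps were taken between adjacent protein-coding genes with outermost starts at most 1000 bp apart and no coding gene in between. Wilson intervals are 95%. Gene assignment and gap finding were tested on simulated data. Python 3.11.15, pandas 2.3.3, numpy 2.4.6 and scipy 1.17.1 were used.

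The 5 genes and the related gene lists were chosen with earlier results of these data known. Named besides them are genes with a start within 3000 bp of their peaks, list genes with a reproducible peak, and peaks next to them in rank. The genes downstream of a member or its neighbour, the next head-to-head pairs and the list genes without a reproducible peak were named after their values were seen. The symbol ceh-44 was matched to the gene that Ensembl calls cone-1.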

Additional observations from a re-analysis of the deposited data

How the results depend on the processing

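All 5 genes had a reproducible peak within 1000 and 500 bp, at q of 0.05 or less, with the outermost start only, and among the 479 highest peaks of either replicate alone. The genes were chosen for high-signal peaks, with summits close to a start and the highest −log10 q. These counts were therefore fixed in advance, and nothing is read from them. All 4 peaks had a counterpart in both replicates within 100, 200 and 500 bp. By −log10 q, tied peaks share a mid-rank of 29.5, which all 4 peaks take. No list was remade with a replicate left out, and the ranges that follow repeat the values of the replicate lists given above. The rank ranged from 1 to 13 for F56G4.6, 3 to 9 for tasp-1, 4 to 30 for cux-7 and 16 to 18 for vps-51 and lin-35. The outermost start was 103 to 141 bp from the summit for F56G4.6, 24 to 25 for tasp-1, 5 to 20 for cux-7, 168 to 191 for vps-51 and 227 to 250 for lin-35. With RefSeq starts, tried after seeing the data, the distance from the pooled summit was 102 bp for tasp-1 and 89 bp for cux-7. With 150 bp to each side, TAATTA was in 14.4% of reproducible peaks, TTTGAA in 44.7%, TTCGAA in 16.7% and GCGGGA in 10.6%, as a wider stretch holds more words. Gap limits of 500 and 2000 bp, added after seeing the data, left 29 and 60 gaps with a reproducible summit. No paired analysis was possible because both replicates belong to 1 group. Depth is unknown, so no limit on undetected peaks can be given.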

Other observations

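Some head-to-head pairs further down the reproducible list are given here as examples, picked after their values were seen. The gap between rpl-20 and Y17G9B.5, which RefSeq names after a mitochondrial signalling protein of the Toll pathway (ECSIT), is 461 bp wide and its peak ranked 24 and 15 in the replicates. The 837 bp gap between ecps-1, a gene with a proteasome component Ecm29 domain, and atx-2, the ataxin 2 homologue, held the peak of rank 44, with 56 and 37 in the replicates. Rank 46 lay between ifet-1, a translational repressor gene, and rps-1, a gene of the small ribosomal subunit. Rank 49 lay between mig-5, a dishevelled homologue of Wnt signalling, and cct-1, a subunit of the cytosolic chaperonin, in a gap of 419 bp. Rank 72 lay between the mitochondrial chaperonin genes Y22D7AL.10, of the small subunit by its RefSeq name, and hsp-60, in a gap of 812 bp with 71 and 139 in the replicates. These are positions and ranks, and no test of the functions was made.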
